A study of Mus musculus with 24 samples.

Results

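The 9 genes *Ccl22*, *Ccl17*, *Ccl1*, *Ccl3*, *Ccl4*, *Ccl5*, *Ccl9*, *Xcl1* and *Cxcl10*, all coding for chemokines that T cells are known to make, were read out of the 55414 genes listed in the deposited table of unique molecular identifier (UMI) counts. They were taken by symbol. The set was chosen by the known role of the genes, with earlier results of these same libraries already seen, the levels in the activation contrast among them, so its values on activation are given as a description. The libraries were made from splenic Tconv CD4+ cells (CD4+ CD25- cells obtained by magnetic sorting) of mice that share a C57BL/6J nucleus and carry either the mtDNA B6 haplotype, labelled WT, or the mtDNA NZB haplotype. The cells were either resting (RES) or activated (ACT), the latter for 72 h with CD28/CD3ε beads plus IL-2 by the methods of the study. This gave 4 groups of 6 libraries: resting mtDNA B6, activated mtDNA B6, resting mtDNA NZB and activated mtDNA NZB. The labels give neither age nor sex, nor whether resting cells were also held in culture, nor whether each library came from its own animal, so the spread between libraries may be partly technical.

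Levels are CPM (counts per 1000000 UMIs) after TMM scaling, with 1 UMI standing for 1 transcript molecule caught at its 3′ end, so that genes can be compared without a correction for length. Totals ran from 51409 UMIs in resting mtDNA NZB replicate 2 to 6449395 in activated mtDNA NZB replicate 6, and activated mtDNA NZB replicate 1 held 641467. A count of 0 in the smallest library allows a level of up to 50.8 CPM (3 counts), so that library cannot show whether a low gene is present. Of 8 activation markers, 4 rose in both haplotypes (*Il2ra*, Mki67, Tnfrsf4 and Tnfrsf9) and 1, Cd69, fell, by the call defined below. Beside these counts, 7.06% of all genes tested were called higher and 10.6% lower in mtDNA B6 cells, and 9.46% and 14% in mtDNA NZB cells. *Il2ra*, the CD25 chain of the IL-2 receptor, went from 3.00 to 79.8 CPM in mtDNA B6 cells and from 2.79 to 111 CPM in mtDNA NZB cells, and the early marker Cd69 from 64.6 to 4.84 CPM and from 63.4 to 5.35 CPM. All 9 T cell markers (*Cd3e*, *Cd4*, *Trac* and others) had counts in every group, with a mean sum between 5662 and 6571 CPM. The libraries also held transcripts of other cells. The 10 B cell markers summed to 10847 and 12160 CPM at rest in the B6 and NZB haplotypes and to 4211 and 3312 CPM after activation. Ighm, the heavy chain of IgM, made up 93.3% and 93.1% of this at rest, and the other 9 markers together stood at 722 and 844 CPM at rest and 824 and 701 CPM after activation. For 8 erythroid markers the sums were 2174 and 815 CPM at rest (1137 without resting mtDNA B6 replicate 1 and 215 without resting mtDNA NZB replicate 6) and 56.6 and 35.8 CPM after activation (33.5 without activated mtDNA B6 replicate 1). Resting libraries carried 1959 and 1454 CPM of 14 monocyte and macrophage markers in the B6 and NZB haplotypes, against 249.5 and 261 CPM after activation. The neutrophil markers stood at 2161 and 2684 CPM at rest and at 23.0 and 45.7 CPM after activation, and without resting mtDNA NZB replicate 6 the second was 684 CPM, under the B6 mean. The summed NK cell markers, at 331 and 269 CPM at rest and 17.0 and 12.9 CPM after activation, were mostly Tyrobp (97.2% and 95.01% at rest), which myeloid cells express too, and the other 6 summed to 9.25 and 13.4 CPM at rest. The pair of CD8 genes was higher after activation, at 282 and 231 CPM against 71.6 and 69.3 CPM. So were the 6 Treg markers, at 614 and 757 CPM against 254 and 310 CPM, mostly Tnfrsf18 (76.3% and 76.7% after activation). The 6 mast cell and basophil markers summed to 52.8 and 51.3 CPM at rest and to 151 and 52.3 CPM after activation, with up to 420.6 CPM in 1 activated mtDNA B6 library. In bulk RNA, fewer cells of a type and less RNA per cell cannot be told apart.

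One library stood apart in the chemokines themselves. Activated mtDNA B6 replicate 1 was the highest of its group in *Ccl1*, *Ccl3*, *Ccl4*, *Ccl5*, *Ccl9* and *Cxcl10* and the lowest in *Ccl22* and *Ccl17*. It also held the highest sum of 6 mast cell and basophil markers of any library (420.6 CPM, against 29.5 to 164 CPM in the other 5 activated mtDNA B6 libraries). Within its group it was highest in B cell markers (6361 CPM against 2506 to 5464 CPM), erythroid markers (172 against 16.2 to 80.9 CPM), monocyte and macrophage markers (294 against 214 to 271 CPM) and platelet markers (287 against 226 to 279 CPM) too. The part of these cells in its chemokine levels was not tested.

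Chemokines are small secreted proteins that guide cells along their gradients by binding G protein-coupled receptors. CCL22 and CCL17 are the ligands of CCR4, a receptor of helper and regulatory T cells and of skin-homing T cells, and CCL1 is the ligand of CCR8. CCL3, CCL4 and CCL5 attract T cells, macrophages and dendritic cells, CCL9 acts through CCR1, XCL1 attracts cross-presenting dendritic cells through XCR1, and CXCL10 is the interferon-induced ligand of CXCR3. In the mouse genome (GRCm39), *Ccl22* (chr8:95471226-95478327, plus strand) and *Ccl17* (chr8:95534358-95538664, plus strand) are neighbours 56.0 kb apart. A cluster on chromosome 11 holds *Ccl5* (chr11:83416602-83425942, minus strand), *Ccl9* (chr11:83463745-83473161, minus strand), *Ccl3* (chr11:83538670-83540191, minus strand) and *Ccl4* (chr11:83553383-83555509, plus strand), the last pair 13.2 kb apart. *Ccl1* lies on the same chromosome (chr11:82067483-82196516, minus strand), *Xcl1* at chr1:164759213-164763096 (minus strand) and *Cxcl10* at chr5:92494497-92496748 (minus strand). The last 1000 bases of *Ccl3*, *Xcl1* and *Cxcl10* overlap another annotated gene on the opposite strand (*Gm53692*, *Gm20743* and *Art3*). Their reads could not be told apart from those of the partner if counting ignored strand, which the methods do not state.

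Of the 9 genes, 8 passed the low-count filter and *Ccl17* did not. On activation, 5 of the 8 passed the call (adjusted p of at most 0.05 in edgeR's quasi-likelihood test and an absolute log2 fold change of at least 1) in mtDNA B6 cells, where 17.7% of all 10566 genes tested did. The count in mtDNA NZB cells was again 5 of 8, against 23.4% of all genes. Since the genes were chosen with this contrast known, nothing is read from these counts. The median log2 fold change of the 8 genes was 0.065 in mtDNA B6 and -0.45 in mtDNA NZB cells, beside -0.026 and -0.058 over all genes tested.

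**Figure D1:**
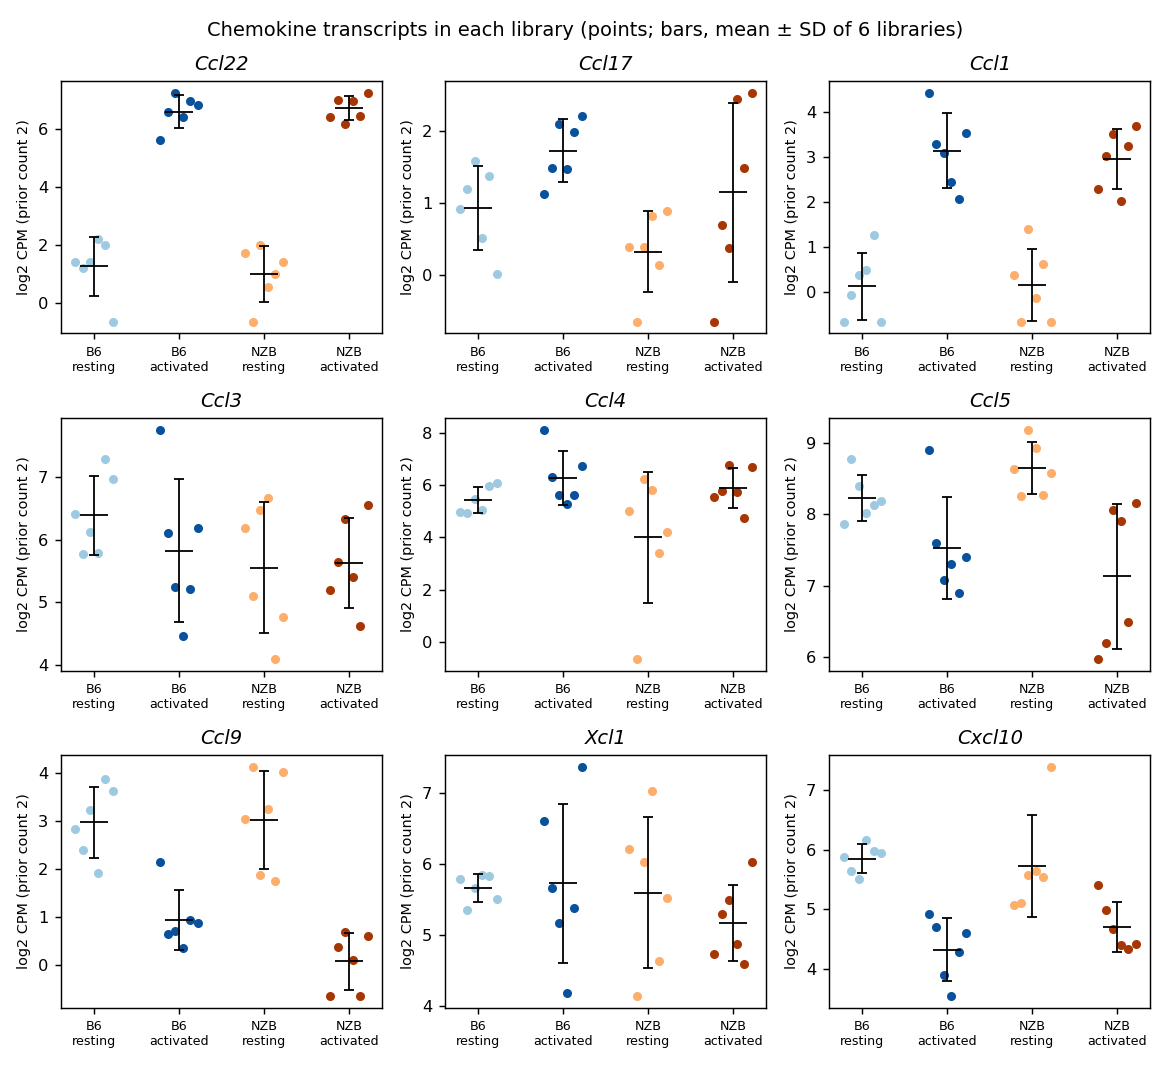
Level of each chemokine gene on the log2 CPM scale (prior count 2) in the 24 libraries, by haplotype and state, with the mean ± SD of 6 libraries as bars. The measured levels of *Ccl22* and *Ccl1* lie apart between states in both haplotypes, except that the smallest library (resting mtDNA NZB replicate 2, 0 UMIs of either) cannot show this for *Ccl1*, and single libraries stand high in *Ccl3*, *Ccl4*, *Ccl5* and *Ccl9* (activated mtDNA B6 replicate 1) and in *Cxcl10* (resting mtDNA NZB replicate 6).

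*Ccl22* had the largest fold difference between states of the 9 genes. Resting mtDNA B6 libraries held 0 to 3.92 CPM (median 2.01) and activated ones 47.6 to 148 CPM (median 103). Resting mtDNA NZB libraries held 0 to 3.36 CPM (median 1.69) and activated ones 71.7 to 151 CPM (median 105). Within each haplotype every activated library lay above every resting one. The 0 in resting mtDNA NZB replicate 2 allows up to 50.8 CPM, still under the activated mtDNA NZB levels. The means were 2.16 ± 1.38 and 101 ± 34.8 CPM in mtDNA B6 cells (SD, n = 6 each), a 46.9-fold difference of means, and 1.71 ± 1.23 and 107 ± 30.6 CPM in mtDNA NZB cells (SD, n = 6 each), a 62.6-fold difference. The log2 fold change was 5.46 (SE 0.34) in mtDNA B6 and 5.70 (SE 0.38) in mtDNA NZB cells, and it lay between 5.29 and 5.81 and between 5.46 and 5.97 over the 37 settings run. At rest *Ccl22* rested on few molecules, at most 19 UMIs in a library, so its fold change is less certain than its activated level. The 14 dendritic cell markers, which mark a known source of CCL22 but include the class II genes *Cd74*, H2-Aa and H2-Eb1 that B cells express too, summed to 2508 to 7920 CPM in resting and 2959 to 5464 CPM in activated mtDNA B6 libraries, with *Xcr1* at 0 in both and *Clec9a* at 0 after activation. Across mtDNA NZB libraries they summed to 3354 to 9607 CPM at rest and 889 to 5985 CPM after activation. Within the list *Cd209a* went from 7.98 to 0.0427 CPM and *Itgax* from 12.5 to 3.95 CPM in mtDNA B6 cells, *Cd74* stood at 2369 and 2020 CPM, and *Fscn1*, an actin-bundling protein of mature dendritic cells, went from 6.22 to 51.4 CPM (log2 fold change 3.03, SE 0.24). The part of such cells in the *Ccl22* level was not tested.

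*Ccl17*, which codes for the other CCR4 ligand, stayed near the detection limit. It held 158 UMIs over all 24 libraries. Resting mtDNA B6 libraries held 0.376 to 2.36 CPM (median 1.45) and activated ones 1.53 to 3.96 CPM (median 2.73), with overlap. Resting mtDNA NZB libraries held 0 to 1.20 CPM (median 0.670) and activated ones 0 to 5.13 CPM (median 1.57), again with overlap. The activated level of *Ccl17* was thus far under that of its neighbour *Ccl22*. Without the low-count filter the log2 fold change of *Ccl17* was 0.92 with the mtDNA B6 and 1.65 with the mtDNA NZB haplotype. *Ccl17* entered the test in 25 alternative settings, was called higher in mtDNA NZB cells in 23 of them (adjusted p 0.0045 to 0.158 over the 25) and in 0 in mtDNA B6 cells.

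*Ccl1*, coding for the CCR8 ligand, was scarce at rest and present in all activated libraries. It ran from 0 to 1.77 CPM (median 0.503) in resting and from 3.58 to 21.1 CPM (median 8.55) in activated mtDNA B6 libraries. Its level in mtDNA NZB cells was 0 to 2.01 CPM (median 0.474) at rest and from 3.49 to 12.3 CPM (median 8.24) after activation. The measured levels of the states did not overlap in either haplotype. A count of 0 in 4 resting libraries allows up to 0.748, 1.13, 1.20 and 50.8 CPM, and the last, in resting mtDNA NZB replicate 2, is above every activated level, so a separation is not shown for that library. The log2 fold change was 3.73 (SE 0.56) in mtDNA B6 cells and 3.38 (SE 0.62) in mtDNA NZB cells. With activated mtDNA B6 replicate 1 left out the first became 3.32 (SE 0.54). The genes whose measured levels did not overlap upwards in both haplotypes, *Ccl22* and, with that limit, *Ccl1*, stand beside 15.4% of all genes tested in mtDNA B6 and 11.9% in mtDNA NZB cells.

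The promoters of 7 of the 9 genes were found in the RefSeq table (250 bases before to 50 after the start, GRCm38.p6), and *Ccl4* and *Ccl5* were not. They were searched on both strands for the letters GGAAAA, the core bound by NFAT, the factor that calcineurin brings to the nucleus after T cell receptor signalling. This string stood in 23.4% of all 32851 promoters and in 2 of the 7 here, those of *Ccl1* and *Ccl3*. The windows are shown because the *Ccl1* promoter holds it at 2 places and because *Ccl1* and *Ccl3* differ in their response, with the motif, read on the opposite strand, in capitals.
Ccl1, first motif base 117 before the start, chr11:82179912-82179941, minus strand: tgagaaaaggagTTTTCCatgtggccattg
Ccl1, first motif base 87 before the start, chr11:82179882-82179911, minus strand: ggtatgagttccTTTTCCctgggactccca
Ccl3, first motif base 60 before the start, chr11:83649421-83649450, minus strand: ctgtgcttaaaaTTTTCCctcctcagcccc
A match of letters is a description and not a site.

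*Ccl3* and *Ccl4*, which code for MIP-1α and MIP-1β, were present in both states. *Ccl3* ran from 54.0 to 155 CPM (median 76.4) in resting and from 21.4 to 214 CPM (median 52.6) in activated mtDNA B6 libraries. For mtDNA NZB cells the range was from 16.5 to 101 CPM (median 53.2) at rest and from 24.2 to 93.5 CPM (median 45.5) after activation. The states overlapped in both haplotypes, with log2 fold changes of -0.27 (SE 0.46) and -0.13 (SE 0.49). Leaving out activated mtDNA B6 replicate 1 made the first -0.96 (SE 0.41).

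*Ccl4* ran from 30.1 to 67.0 CPM (median 38.4) in resting and from 38.6 to 279 CPM (median 63.5) in activated mtDNA B6 libraries, with overlap. Its level in mtDNA NZB cells went from 0 to 73.9 CPM (median 24.7) at rest and from 26.0 to 109.6 CPM (median 54.0) after activation, also with overlap. The log2 fold change was 1.17 (SE 0.45) in mtDNA B6 and 0.82 (SE 0.48) in mtDNA NZB cells. The call in mtDNA B6 cells was lost in 11 of 37 settings. Without activated replicate 1 the value was 0.52 (SE 0.40), and with the library set as a term 0.56 (SE 0.57). With smaller shifts the call was also lost without activated replicate 6 (1.15), without resting replicates 1, 2, 3 or 4 (1.08 to 1.20), with DESeq2 (1.17) and with a replicate block by label number (1.06) or title number (0.96). The library set as a term over the 21 libraries described under the processing lost it too.

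The pair changed place within libraries. Because *Ccl3* and *Ccl4* are counted in the same library, the ratio of their UMI counts needs no scaling. In resting mtDNA B6 libraries *Ccl4* gave 0.371 to 0.637 UMIs for each UMI of *Ccl3* (median 0.548), and in activated ones 1.15 to 1.80 (median 1.32). With the mtDNA NZB haplotype it gave 0.433 to 0.837 in the 5 resting libraries where *Ccl4* was counted and 1.08 to 1.37 (median 1.19) after activation. The remaining resting library, mtDNA NZB replicate 2, held 0 UMIs of *Ccl4* and 2 of *Ccl3*. Thus *Ccl3* exceeded *Ccl4* in every resting library where both were counted and *Ccl4* exceeded *Ccl3* in every activated one, activated mtDNA B6 replicate 1 included (1.30). The second deposited count table gave the same separation, with 0.350 to 0.847 at rest where *Ccl4* was counted and 1.04 to 1.75 after activation. This ratio was chosen after the values were seen, so no test is given. Part of the difference could be in reads of the antisense gene over *Ccl3*, which was not tested. The ratio also does not remove a change in the cells present. Monocyte and macrophage markers went from 1959 to 249.5 CPM in mtDNA B6 and from 1454 to 261 CPM in mtDNA NZB cells. The summed CD8 genes went from 71.6 to 282 CPM and from 69.3 to 231 CPM. The part of such cells in the ratio was not tested.

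**Figure D2:**
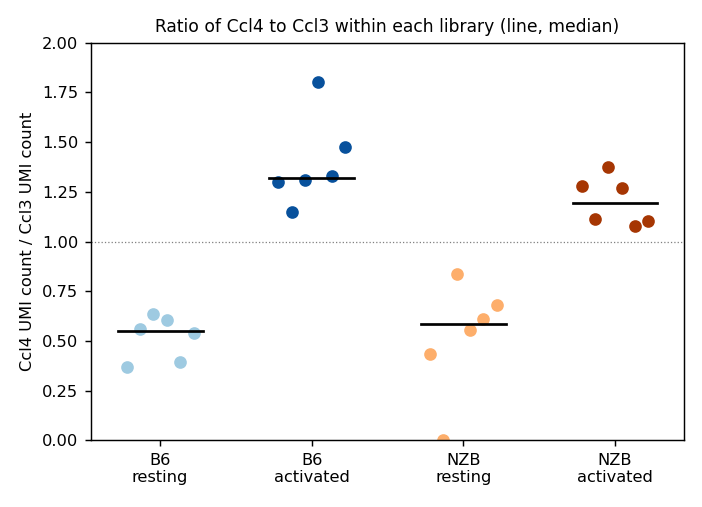
Ratio of the *Ccl4* to the *Ccl3* UMI count in each of the 24 libraries, with the median of each group as a line and equality dotted. All 12 activated libraries lie between 1.08 and 1.80 and all resting libraries at or under 0.837.

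*Ccl5*, which codes for RANTES, was the most abundant of the 9 genes in every group by mean. It ran from 232 to 437 CPM (median 286) in resting and from 118 to 481 CPM (median 163) in activated mtDNA B6 libraries. Only the activated replicate 1 lay above the resting range, and the other 5 lay below it. In mtDNA NZB cells it ran from 305 to 584 CPM (median 391) at rest and from 61.8 to 286 CPM (median 164) after activation. These measured levels did not overlap. The lowest resting value, 305 CPM, was 18 UMIs in the smallest library, too few to set it apart from 286 CPM. The next, 309 CPM in resting mtDNA NZB replicate 5, rested on 675 UMIs. The log2 fold change was -0.55 (SE 0.34) in mtDNA B6 and -1.29 (SE 0.35) in mtDNA NZB cells. Without activated mtDNA B6 replicate 1 the first was -0.99 (SE 0.31). The difference of the 2 responses of *Ccl5* did not pass (interaction -0.74, SE 0.49, adjusted p 0.502 by edgeR's quasi-likelihood test), and with that library left out it was -0.30 (SE 0.43, adjusted p 0.833, with 0.289 to 0.924 over all settings).

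*Ccl9*, coding for MIP-1γ, was the least abundant gene after activation. It ran from 3.13 to 14.0 CPM (median 7.63) in resting and from 0.636 to 3.82 CPM (median 1.09) in activated mtDNA B6 libraries, where only replicate 1 reached into the resting range. Across mtDNA NZB libraries it ran from 2.75 to 16.9 CPM (median 8.32) at rest and from 0 to 0.982 CPM (median 0.544) after activation. These measured levels did not overlap, but the 0 UMIs in activated mtDNA NZB replicate 1 allow up to 4.31 CPM, above the resting libraries at 2.75 and 3.02 CPM, so a separation is not shown for that library. The highest resting value, 16.9 CPM, was 1 UMI in the smallest library. The log2 fold change was -2.44 (SE 0.47) and -3.59 (SE 0.59). Leaving out activated replicate 1 made the first -3.02 (SE 0.50). Monocyte and macrophage markers moved with it (1959 to 249.5 CPM and 1454 to 261 CPM), with *C1qa* at 0 in both activated groups. Of these 14 markers 8 were tested, and 7 were called lower in both haplotypes. Beside them, 10.6% of all genes were called lower in mtDNA B6 and 14% in mtDNA NZB cells. The part of the markers in the *Ccl9* result was not tested. The measured levels that did not overlap downwards in mtDNA NZB cells, those of *Ccl5* and *Ccl9*, each with the limit given for it, stand beside 6.95% of all genes tested.

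*Xcl1*, coding for lymphotactin, was the gene whose mean over all libraries moved in opposite directions in the 2 haplotypes, but within wide spread. It ran from 40.4 to 57.2 CPM (median 52.3) in resting and from 17.6 to 165 CPM (median 45.6) in activated mtDNA B6 libraries. In mtDNA NZB cells it ran from 16.9 to 129.8 CPM (median 55.1) at rest and from 23.5 to 64.5 CPM (median 33.8) after activation. The lowest resting value there, 16.9 CPM, was 1 UMI in the smallest library, and the next, 24.3 CPM in replicate 5, rested on 53 UMIs. The median was thus lower after activation in both haplotypes. The states overlapped in both, with log2 fold changes of 0.40 (SE 0.39) and -0.77 (SE 0.41). Over the 37 settings run the first lay between -0.072 and 0.61 and was under 0 in 1, so its direction is not settled. The second was under 0 in all 37. The narrow range at rest in mtDNA B6 cells widened after activation, where replicates 1 and 6 held 96.5 and 165 CPM and the other 4 between 17.6 and 50.2 CPM.

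*Cxcl10*, coding for IP-10, was lower after activation. It ran from 45.2 to 70.9 CPM (median 59.8) in resting and from 11.0 to 29.8 CPM (median 21.4) in activated mtDNA B6 libraries, without overlap, beside 16.4% of all genes with such groups downwards. In mtDNA NZB cells it ran from 33.0 to 168 CPM (median 46.6) at rest and from 19.5 to 41.7 CPM (median 22.8) after activation, and the ranges met only in activated replicate 1. The log2 fold change was -1.50 (SE 0.31) and -1.42 (SE 0.32). The latter leaned on resting mtDNA NZB replicate 6, without which the resting mean was 41.9 ± 7.84 CPM (SD, n = 5) and the log2 fold change -0.80 (SE 0.22), under the fold threshold. That library also held 12680 CPM of 11 neutrophil markers and 3306 CPM of monocyte and macrophage markers, the highest of all 24, and their part in its *Cxcl10* level was not tested.

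*Cxcl10* is a textbook target of interferon and NF-κB signals. Its promoter (RefSeq, GRCm38.p6) held all 3 other strings that were searched on both strands, and each is shown. They were the interferon-stimulated response element in the form GAAA, any 2 bases, GAAA, found in 3.44% of all promoters, a κB site in the form GGGA, any base, TT, any base, CC, found in 1.2%, and TGANTCA, an AP-1 site found in 7.81%. The motif is in capitals.
Cxcl10 interferon element, first base 213 before the start, chr5:92349083-92349112, minus strand: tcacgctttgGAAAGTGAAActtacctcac
Cxcl10 κB string, first base 103 before the start, chr5:92348973-92349002, minus strand: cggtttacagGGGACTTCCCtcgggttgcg
Cxcl10 AP-1 string, first base 74 before the start, chr5:92348945-92348974, minus strand: cggagccttgcTGAGTCAtctccaaagtca
Among the other 6 promoters found, only that of *Ccl9* held the AP-1 string, and none held the other 2.

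**Figure D3:**
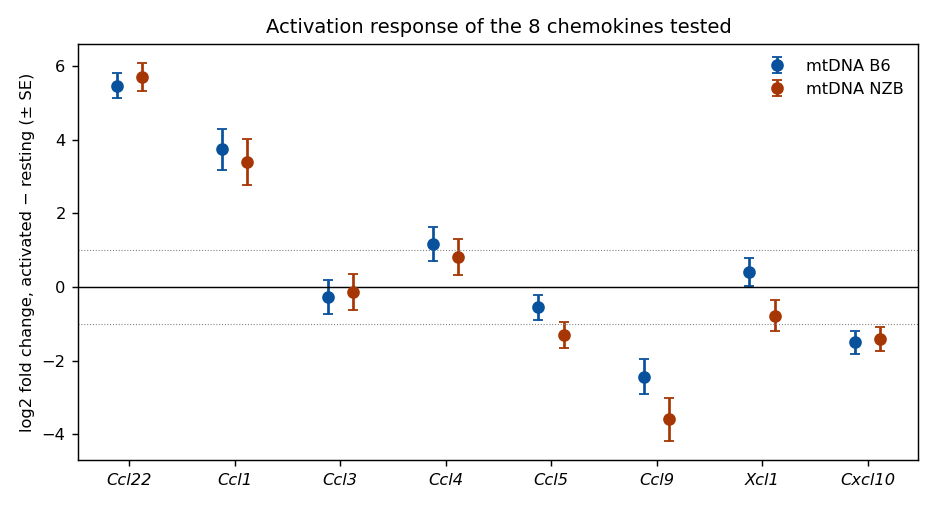
Log2 fold change, activated minus resting, with its SE for the 8 chemokine genes tested, in mtDNA B6 (blue) and mtDNA NZB (brown) cells, with the fold threshold of 1 dotted. *Ccl22* stands at 5.46 and 5.70 and *Ccl9* at -2.44 and -3.59, while *Xcl1* lies on both sides of 0. Its mtDNA B6 value was under 0 in 1 of the 37 settings run.

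The summed level of the 9 genes overlapped between states, while its make-up differed. The sum was 561 ± 70.7 CPM in resting and 586 ± 309 CPM in activated mtDNA B6 cells, and 634 ± 199 CPM in resting and 471 ± 182 CPM in activated mtDNA NZB cells (SD, n = 6 each). Replicate 1 held 1174 CPM of the activated mtDNA B6 sum, and the mean of the other 5 was 469 ± 127 CPM (SD, n = 5), below the resting mean. *Ccl22* made up 0.399% ± 0.271 of that sum in resting and 21.5% ± 11.0 in activated mtDNA B6 cells, and 0.259% ± 0.171 and 24.7% ± 7.79 in mtDNA NZB cells (SD, n = 6 each). *Ccl5* went from 54.4% ± 9.65 to 35.2% ± 7.87 and from 66.4% ± 7.61 to 33.4% ± 11.7. Without activated mtDNA B6 replicate 1 the shares of *Ccl22* and *Ccl5* in that group were 25.02% ± 7.77 and 34.1% ± 8.21 (SD, n = 5). *Ccl3* and *Ccl4* together with *Ccl5* still held the larger part of the sum after activation in both haplotypes.

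**Figure D4:**
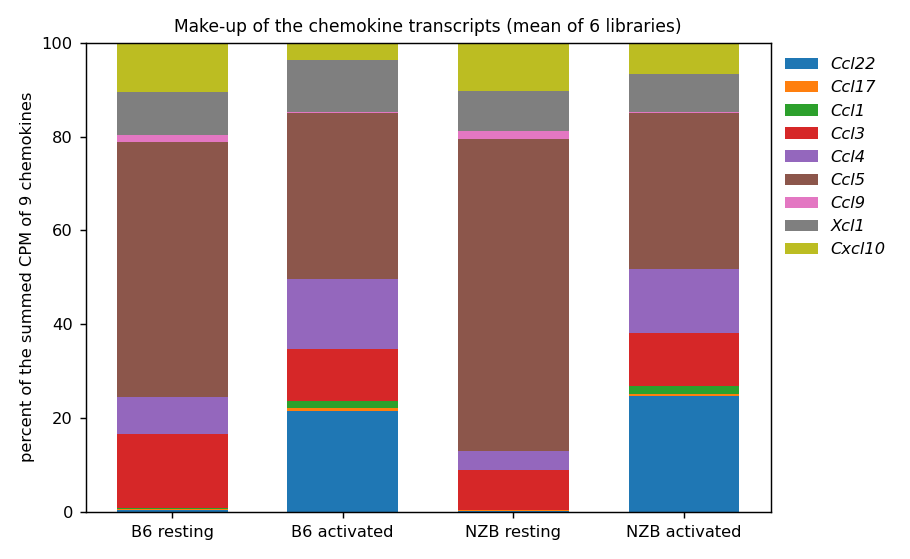
Mean percent that each chemokine gene made up of the summed CPM of the 9 genes, by haplotype and state (n = 6 libraries each). *Ccl22* went from under 1% to 21.5% and 24.7%, and *Ccl5* from 54.4% and 66.4% to 35.2% and 33.4%.

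The haplotypes were compared within each state. Which earlier values led to the choice of the genes is not stated, so these tests may not be independent of it. At rest 0 of the 8 genes tested passed the call, beside 1.01% of all genes, and 0 had an unadjusted p under 0.05 in edgeR or DESeq2 (20.8% of all genes did in edgeR). The largest fitted difference, NZB minus B6, was that of *Ccl3* (-0.57 on the log2 scale, SE 0.48, adjusted p 0.539 by edgeR's quasi-likelihood test). *Ccl5* stood at 0.46 (SE 0.35) and *Ccl22* at -0.15 (SE 0.52), so that a small difference in *Ccl22* could not be detected at these resting counts. After activation 0 of the 8 passed, beside 0% of all genes (327 genes, 3.09%, had an unadjusted p under 0.05). *Ccl22* was the most tightly measured, at 0.095 (SE 0.24), with 107 ± 30.6 against 101 ± 34.8 CPM. *Ccl9* had the largest difference, at -1.25 (SE 0.67), with 0.492 ± 0.425 CPM in mtDNA NZB against 1.47 ± 1.17 CPM in mtDNA B6 cells (SD, n = 6 each), with 0 UMIs in 2 of the mtDNA NZB libraries. Its exact two-sided permutation p was 0.0238, unadjusted and the lowest of 18 such comparisons (the smallest possible being 0.00216), and its adjusted p was 1 in edgeR. In DESeq2 it alone of the 8 chemokine genes had an unadjusted p under 0.05, beside 270 of all 10566 genes tested. Without activated mtDNA B6 replicate 1 the *Ccl9* difference was -0.66 (SE 0.69). *Xcl1* stood at -0.78 (SE 0.40, adjusted p 1 in edgeR), with -1.03 to -0.30 over the 36 settings run. The sign of the activated differences of *Ccl3*, *Ccl4* and *Ccl5* (-0.43, -0.58 and -0.28) turned without that same library (0.26, 0.071 and 0.16).

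The responses themselves were compared as an interaction, NZB minus B6. Of the 8 genes 0 passed an adjusted p of 0.05, beside 0% of all genes (1512, or 14.3%, had an unadjusted p under 0.05), and only *Xcl1* had an unadjusted p under 0.05 in edgeR (-1.18, SE 0.57, adjusted p 0.345), while 0 did in DESeq2. Over the 36 settings run the *Xcl1* value lay between -1.565 and -0.70. *Ccl22* differed by 0.24 (SE 0.57) and *Ccl1* by -0.35 (SE 0.95). These errors leave room for differences of more than 1 on the log2 scale, so the data do not show that the haplotypes respond alike.

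Variation from library to library within a state was described next, with the same doubt about its independence. Over the 12 activated libraries, with the haplotype means removed, the 15 pairs of the 6 genes with a mean of at least 10 CPM were compared. *Ccl3* and *Ccl4* varied almost as one (Pearson r = 0.98, Spearman rho = 0.99, permutation p = 1e-05, the smallest that the permutations can give, 0.00015 after adjustment over the 15 pairs). The relation stood at 0.96 without activated mtDNA B6 replicate 1 and at 0.99 within the 7 libraries of 1 library set. *Xcl1* followed *Ccl3* (r = 0.80) and *Ccl4* (r = 0.78), and *Ccl5* followed *Ccl3* (r = 0.73) and *Ccl4* (r = 0.77), each with an adjusted permutation p of 0.0214. Without activated mtDNA B6 replicate 1, the pairs of *Ccl5* stood at 0.59 and 0.65 and no longer passed. With replicate 4 of that group left out, 3 pairs passed. With either replicate 3 of activated mtDNA B6 or replicate 6 of activated mtDNA NZB cells left out, the pair of *Ccl3* and *Ccl4* alone passed, although the r of the other 4 pairs stayed between 0.69 and 0.79 (adjusted permutation p 0.0533 and 0.0617). No pair of *Ccl22* passed (r = -0.36 with *Ccl3*, -0.41 with *Ccl4* and -0.31 with *Ccl5*, adjusted permutation p from 0.339 to 0.361). Without activated mtDNA B6 replicate 1 these r values were 0.25, 0.13 and 0.10. Without activated mtDNA NZB replicate 6 they were -0.56, -0.60 and -0.55 (adjusted permutation p 0.183, 0.134 and 0.120), so the relation of *Ccl22* to these genes is not settled.

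Marker sums moved along with some of these genes. Of 66 relations between 6 genes and 11 marker lists, computed after the data had been seen, 1 passed adjustment: *Ccl5* followed the sum of 10 B cell markers, of which Ighm was 80.4% and 78.8% in activated mtDNA B6 and NZB cells (Pearson r = 0.92, Spearman rho = 0.94, permutation p = 0.00037, adjusted p 0.0244, r = 0.95 without the 2 most distant libraries, 0.89 in the 7 libraries of 1 set). Activated mtDNA NZB replicates 1, 2 and 5 held 1138 to 1884 CPM of B cell markers and the lowest *Ccl5* levels. The CD8 sum had r = 0.84 with *Ccl5*, 0.70 with *Ccl3*, 0.70 with *Ccl4* and 0.66 with *Xcl1* (adjusted permutation p = 0.0527 each), and -0.044 with *Ccl22*. Without activated mtDNA B6 replicate 1, 3 of the 66 relations passed, all of *Ccl5*: with the B cell sum (r = 0.95, adjusted permutation p = 0.0323), the CD8 sum (r = 0.89, 0.0323) and the sum of dendritic cell markers (r = 0.96, 0.0257, against r = 0.86, 0.0527 over 12 libraries). The CD8 values of *Ccl3*, *Ccl4* and *Xcl1* were then 0.81, 0.81 and 0.64 (adjusted permutation p = 0.0708 each). With parts of these lists, given as r alone, *Ccl5* stood at 0.92 with Ighm and at 0.83 with the other 9 B cell markers (0.94 each without activated mtDNA B6 replicate 1). It stood at 0.85 with the class II genes (0.96), which made up 3636 of 3880 CPM of the dendritic cell sum in activated mtDNA B6 cells, and at 0.41 with the other 11 dendritic cell markers (0.62). Whether B cells, dendritic cells or CD8 T cells contributed to these transcripts was not tested.

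**Figure D5:**
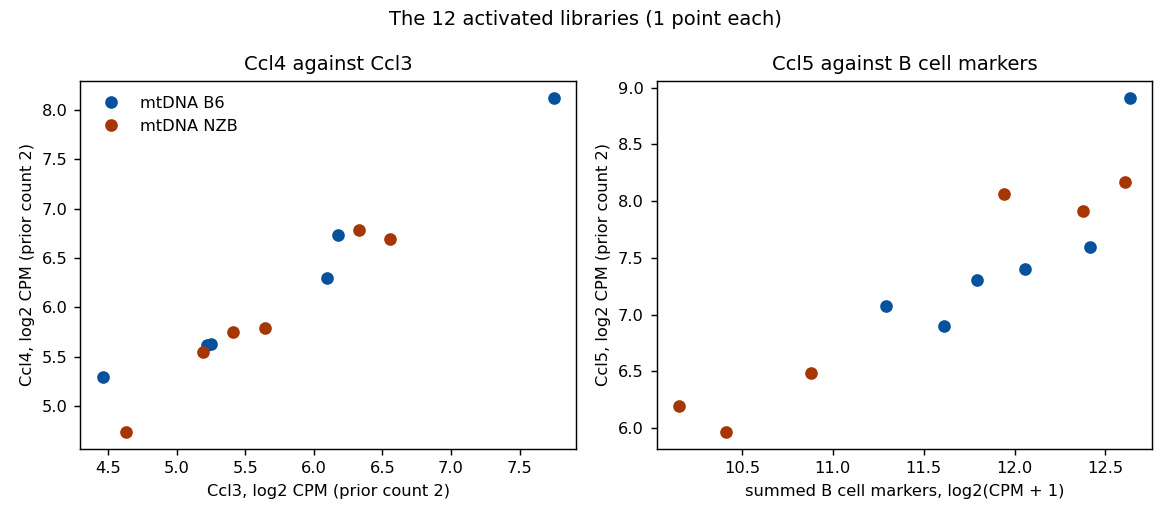
Left, *Ccl4* against *Ccl3* and right, *Ccl5* against the summed B cell markers, on log2 scales, 1 point for each of the 12 activated libraries, mtDNA B6 in blue and mtDNA NZB in brown. With haplotype means removed, Pearson r is 0.98 on the left and 0.92 on the right.

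Of the 10565 other genes tested, those with the pattern most like each chemokine over the 12 activated libraries were named by Pearson r alone. For *Ccl3* they were *Ccl4* (0.98), *Ifng* (0.93) and *Car2* (0.90). For *Ccl4* they were *Ccl3*, *Smim3* (0.93) and *Ifng* (0.92). *Ifng*, the gene of interferon-γ, ran from 26.1 to 167 CPM in activated mtDNA B6 (highest in replicate 1) and from 31.3 to 68.3 CPM in activated mtDNA NZB cells. For *Ccl5* they were *Lgals8* (0.97), *Erp44* (0.97) and *Skap2* (0.95), for *Xcl1* *Bend4* (0.94), *Ubr2* (0.91) and *Dtx3* (0.89), for *Ccl22* *B4galt6* (0.90), *Tbc1d8* (0.87) and *Golga4* (0.79), and for *Cxcl10* *Uros* (0.91), *D5Ertd579e* (0.88) and *Dip2b* (0.86). The lists changed without activated mtDNA B6 replicate 1. *Ccl3* and *Ccl4* then remained first for each other (0.96), but *Ifng* came to 0.86 with *Ccl3* (rank 30) and 0.84 with *Ccl4* (rank 86), and the 3 genes named for *Ccl5* to 0.96, 0.97 and 0.93 (ranks 16, 10 and 76). Among so many genes high values arise readily, and no test is given.

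Among the receptors of these ligands, *Ccr4* and *Cxcr3* rose in both haplotypes, beside 7.06% of all genes called higher in mtDNA B6 and 9.46% in mtDNA NZB cells (10.6% and 14% lower). *Ccr4*, the receptor of CCL22 and CCL17, went from 1.97 to 7.40 CPM (log2 fold change 1.96, SE 0.40, adjusted p 0.000287) and from 2.41 to 7.30 CPM (1.25, adjusted p 0.0157). *Cxcr3*, the receptor of CXCL10, went from 44.1 to 94.2 CPM and from 46.2 to 95.8 CPM (1.09 and 1.17, adjusted p 5.27e-06 and 3.53e-06, edgeR's quasi-likelihood test). Thus *Cxcr3* and *Cxcl10* differed in direction, and *Ccr4* and *Ccl22* shared one. *Ccr8*, the receptor of CCL1, stood at 1.75 and 1.10 CPM in resting and activated mtDNA B6 cells. *Ccr8*, *Ccr1*, *Ccr3* and *Xcr1* did not pass the low-count filter, and the means of the last 3 were at most 0.211 CPM in every group. Among 5 atypical receptors, which take up chemokines or present them without signalling in the usual way, *Ccrl2* alone was tested, and it fell from 53.3 to 5.76 CPM and from 29.9 to 4.90 CPM (log2 fold change -3.21 and -2.79).

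Of 29 other chemokine genes, 7 were abundant enough to be tested. Of these 1 rose in each haplotype, while 3 fell in mtDNA B6 and 4 in mtDNA NZB cells, beside 7.06% and 9.46% of all genes called higher and 10.6% and 14% called lower, with a median log2 fold change of -0.64 and -1.66. *Pf4*, the platelet chemokine CXCL4, rose from 11.0 to 170.0 CPM (3.82) and from 12.2 to 99.3 CPM (3.65), and of the 4 platelet markers tested 2 (*Itgb3* and *Treml1*) rose in both haplotypes, with *Itgb3*, an integrin not limited to platelets, at 85.5% and 89.6% of the activated marker sum. Their part in it was not tested. The neutrophil attractant *Cxcl2* fell from 116 to 0.691 CPM (-7.31) and from 42.4 to 1.99 CPM (-4.87), the monocyte attractant *Ccl2* from 19.0 to 0.268 CPM and from 5.48 to 0.127 CPM, and *Ccl6* from 153 to 23.1 CPM and from 102 to 8.74 CPM. Myeloid markers moved with these genes. Of 10 neutrophil markers tested 10 fell in both haplotypes, from summed levels of 467 to 4409 CPM to 6.12 to 55.5 CPM in mtDNA B6 and from 269 to 12680 CPM to 5.88 to 101 CPM in mtDNA NZB cells, beside the monocyte and macrophage markers given with *Ccl9*, and their part in these falls was not tested. *Cxcl16* was the fourth to fall in mtDNA NZB cells (-1.66). In *Cxcl2* the haplotypes also differed at rest (NZB minus B6 -1.61, SE 0.44, adjusted p 0.0482), a call made in 8 of the 36 other settings, where the adjusted p ran from 0.026 to 0.197.

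Of all genes tested, 7.06% were called higher and 10.6% lower in mtDNA B6 cells and 9.46% and 14% in mtDNA NZB cells, beside which the counts of the next lists stand. Of 5 NF-κB subunit genes 0 passed the call in mtDNA B6 cells, where 3 had an adjusted p of at most 0.05 with smaller folds (*Nfkb1*, *Rel* and *Rela* at 0.47, -0.90 and -0.39), and 2 fell in mtDNA NZB cells (*Rel* at -1.97 and *Relb* at -1.08). Of 8 genes of NF-κB feedback, 1 rose and 4 fell in both haplotypes. *Tnfaip3*, the gene of the inhibitor A20, fell from 585 to 33.7 CPM in mtDNA B6 cells (-4.11) and from 726 to 29.6 CPM in mtDNA NZB cells (-4.64), and *Bcl3* rose from 55.2 to 147 CPM (1.40) and from 63.5 to 141 CPM (1.00). Of 11 genes of NFAT, IRF, BATF, Ikaros and EGR factors, 3 rose in mtDNA B6 cells (*Irf8*, *Ikzf3* and *Egr3*) and 0 in mtDNA NZB cells, where 5 had an adjusted p of at most 0.05 with smaller folds. In the interaction 0 genes of these lists passed. Among 11 Th1 and cytotoxic genes the mtDNA B6 cells had 4 higher and 1 lower and the mtDNA NZB cells 3 higher and 2 lower calls, led by the granzyme gene *Gzmb* (34.9 to 800.3 CPM and 29.8 to 432 CPM). The summed CD8 genes moved with it (71.6 to 282 CPM and 69.3 to 231 CPM), and their part in it was not tested. Of 7 Th2 genes tested 1 rose, *Il13*, from 1.32 to 18.7 CPM and from 1.36 to 22.0 CPM.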

How the data were processed

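Bulk 3′ RNA-seq (MARS-seq) libraries of 24 samples were analysed from the UMI count table deposited with the study. Per the labels and methods, the authors trimmed reads with cutadapt, aligned them with STAR to the 3′ ends of GRCm39 genes, counted them with HTSeq and collapsed UMIs with a saturation correction. The deposited counts are whole numbers, not normalised. A second deposited count table, not described in the sources used here, served as an alternative, and 1 column that matched no sample was left out. The groups came from the labels. Counts were fitted with edgeR 4.0.16 (TMM, filterByExpr, quasi-likelihood test, Benjamini-Hochberg adjustment over 10566 genes) in R 4.3.3, all 24 libraries and 4 groups in 1 fit. Calls were made at an adjusted p up to 0.05 with a log2 fold change of 1 or more in size (the interaction, adjusted p alone). Correlations used log2 CPM (prior count 2) and 100000 permutations, haplotype differences an exact permutation test, in SciPy 1.17.1. Steps were tested on simulated data.

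Named genes were the 9 chemokines, their receptors, from each other list up to 3 genes of at least 10 CPM with the largest fold plus those needed for a small count, and the 3 genes most alike each chemokine. The members and lists were chosen with earlier results of these data known. A receptor gene is not reported here. Alternatives were other scaling, filters, DESeq2 1.42.0, the second table, a fit of 12 libraries, replicate blocks, library set as a term, the 21 libraries left without 3 that the comparison tables of the study omit (resting mtDNA NZB replicates 2 and 6, activated mtDNA NZB replicate 6), and leaving out each library. The set term over 21 libraries, the sum, shares, likeness and marker relations without a library, the marker relations, the parts of marker lists and the *Ccl4* to *Ccl3* ratio were added after seeing the data. Library sets were 3 groups of 8 libraries with similar reads per UMI, which are not evenly spread over the 4 groups, and no label says what they are. Totals of 51409 to 6449395 UMIs set the precision of each library, and limits from a count of 0 (3 counts) cover counting error only.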

Additional observations from a re-analysis of the deposited data

Results flagged for a closer look

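Of 36 sets of 6 libraries (9 chemokines in 4 groups), 5 held 1 library whose gap to its neighbour was large for the range of the set. For normally distributed values chance gives about 1 in 20. The CPM values need not be normal and the sets share libraries, so that rate may not hold here. Activated mtDNA B6 replicate 1 accounted for 4 of them. It held 214 CPM of *Ccl3* (next 71.7), 278.5 CPM of *Ccl4* (next 105.8), 480.7 CPM of *Ccl5* (next 192) and 3.82 CPM of *Ccl9* (next 1.28). Without it the group means were 47.0 ± 21.8, 64.0 ± 27.6, 154 ± 28.9 and 1.00 ± 0.252 CPM (SD, n = 5). The remaining one was *Cxcl10* in resting mtDNA NZB replicate 6, at 168 CPM against 49.5 CPM in the next library.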

How the results depend on the processing

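*Ccl22* and *Ccl1* were called on activation in all 37 settings in both haplotypes, and *Ccl9* and *Cxcl10* in all 37 in mtDNA B6 cells. For the other haplotype *Ccl5* was called in all 37, *Ccl9* in all 36 that tested it and *Cxcl10* in 34. Of 1468 values of the chemokines under alternatives, 14 lost a call, 1 gained one and 0 called values changed sign. The number called on activation was 4 to 5 in mtDNA B6 and 4 to 6 in mtDNA NZB cells (without each library in turn, 4 to 5 and 5 to 6), and 0 in each haplotype comparison and in the interaction. *Ccl4* in mtDNA B6 cells was called in 26 of 37 (adjusted p 0.0189 to 0.482), and *Xcl1* in mtDNA NZB cells only over 21 libraries (-1.16, adjusted p 0.0377, range 0.0377 to 0.439). *Cxcl10* in mtDNA NZB cells lost its fold over 21 libraries (-0.74), over these with the library set as a term (-0.70) and without resting mtDNA NZB replicate 6. In the 25 settings that tested it, *Ccl17* was called in mtDNA NZB cells in 23. Low counts limit *Ccl17*, *Ccl1* and *Ccl9*.

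In the functional lists, 2 genes differed between haplotypes at rest. This count was 6 by adjusted p alone, 4 over libraries of at least 1000000 UMIs, 1 with RLE size factors or the stricter filter, and 0 with the second table, the fit of 12 libraries, the block by title number, or the library set as a term (24 or 21 libraries). Leaving out single libraries gave 0 to 6. In the interaction 1 passed over 21 libraries, against 0. The chemokine pairs past adjustment, 5 of 15, numbered 1 to 6 without single libraries.

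Over all genes, 1868 passed in mtDNA B6 cells on activation (4958 by adjusted p alone, 3200 without a filter). At rest 107 passed between haplotypes, 292 by adjusted p alone, 323 over 21 libraries, 1 with the library set as a term, 212 with both and 0 in the fit of 12 libraries (0 to 289 without single libraries). In the interaction 0 passed, 113 over 21 libraries but 0 over these with the library set as a term. The cause was not tested.

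By label number, same-numbered resting and activated samples correlated between -0.158 and 0.253 (n = 9 pairs). By title number they correlated between -0.185 and 0.253 (n = 12 pairs). Differently numbered samples of a haplotype correlated between -0.191 and 0.282 by either number (n = 63 and 60 pairs). The methods of the study divide isolated cells into resting and activated groups, so samples with the same label number may share a preparation. The correlations cannot decide this, because the ranges are alike. The main fit did not pair the samples. What the numbers mark is not stated, and a shared animal was not tested. A replicate block left 4 chemokines called in mtDNA B6 and 5 in mtDNA NZB cells with either number, and it changed 1 call, that of *Ccl4* in mtDNA B6 cells.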

Other observations

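Of 17 interferon response genes tested, 7 rose and 4 fell on activation in both haplotypes, beside 7.06% of all genes called higher and 10.6% lower in mtDNA B6 cells and 9.46% and 14% in mtDNA NZB cells. *Gbp2*, a guanylate-binding protein, rose from 35.4 to 431 CPM in mtDNA B6 cells (3.60) and from 31.3 to 418 CPM in mtDNA NZB cells (3.91). *Iigp1* and *Igtp*, immunity-related GTPases, rose by 3.44 and 2.30 in mtDNA B6 and by 3.41 and 2.31 in mtDNA NZB cells. The genes that fell were *Isg15*, *Irf7*, *Mx1* and *Oasl2*, at -1.75, -1.62, -2.13 and -2.28 in mtDNA B6 cells and -2.02, -1.15, -1.84 and -1.55 in mtDNA NZB cells. *Cxcl10* had the direction of the latter genes.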
